A study of Homo sapiens with 6 samples.

Results

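Clade B serpins are a family of mostly intracellular protease inhibitors. The 8 genes described here, SERPINB1, SERPINB2, SERPINB3, SERPINB4, SERPINB5, SERPINB6, SERPINB8 and SERPINB9, were chosen by gene symbol from the 26255 symbols of each expression file, and all 8 were listed. Earlier results of these data were known when they were chosen. The RNA came from BxPC-3, a cell line established from a human pancreatic adenocarcinoma, and was sequenced in 6 libraries, 2 for each of 3 groups. Parent cells received no treatment, NC-1 cells received a negative control treatment, and miR-4711-5p cells received the microRNA, each on the same cell line and with no other agent named. The paper's methods name 2 negative control RNAs for transfection and do not use the label NC-1. RNA of the transfected cells was taken 36 h after transfection. The harvest time of the Parent cells is not stated. Each comparison with Parent therefore includes any effect of transfection, and perhaps of time. All samples come from 1 cell line, and no source says whether the 2 libraries of a group come from separate cultures, so the p-values below measure only the spread between these libraries, which may be technical. Values are FPKM, a read count scaled to the length of the transcript and to the size of the library, as the authors deposited them, so that levels of different genes can be set side by side per length.

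A serpin presents an exposed reactive centre loop to a protease as bait. When the protease cuts the loop, the serpin changes shape and traps the enzyme in a covalent complex, and both molecules are used up. Clade B serpins lack a classical signal peptide and work mostly in the cytosol and nucleus, where they protect a cell from its own or incoming proteases, although some are also released. Several of them, among them SERPINB3, SERPINB4, SERPINB5 and SERPINB13, are typical of squamous and other stratified epithelia and are often expressed in carcinomas.

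The epithelial markers KRT7, KRT8, KRT18, KRT19, EPCAM and CDH1 were all expressed, and their summed level was between 5873 and 6247 FPKM in Parent, 5247 and 5534 in NC-1, and 5195 and 5247 with miR-4711-5p. Of 7 leukocyte markers, 1 (CD14) reached 1 FPKM in any library, TYROBP was listed at 0 in all 6, and the sum was between 1.85 and 2.95 FPKM. The sum of 6 fibroblast markers reached at most 2.47 FPKM. The sum of 3 endothelial markers was 1.33 to 1.39 FPKM in Parent, 3.23 to 3.53 in NC-1 and 0.649 to 0.775 with miR-4711-5p. Most of it was CDH5, with 0.995 and 0.929 FPKM in Parent, 3.16 and 2.88 in NC-1, and 0.612 and 0.469 with miR-4711-5p. CDH5 thus averaged 1 FPKM only through NC-1, where it was high, and its calls are not used here. The epithelial markers moved in both directions: against Parent and against NC-1, CDH1 and KRT19 (-0.85 and -0.50) were called lower and KRT18 (0.19 and 0.33) higher with miR-4711-5p, while KRT8 and EPCAM were called higher and KRT7 lower against NC-1 alone. CDH1, which encodes E-cadherin, had 114 and 117 FPKM in Parent, 109 and 110 in NC-1, and 28.3 and 30.9 with miR-4711-5p (log2 fold change -1.93 against Parent, limma adjusted p = 2.81e-06). The 3 pancreatic acinar markers summed to 0.730 to 1.57 FPKM in Parent, 2.62 to 2.73 in NC-1 and 3.18 to 5.10 with miR-4711-5p, all but a trace of it from PRSS1. The part of these markers in the results below was not tested. The depth in reads is not known from FPKM. The steps between the lowest values gave relative depths between 0.751 (NC-1 1) and 1.21 (miR-4711-5p 2), with Parent 1 set to 1. By this rough estimate the miR-4711-5p libraries were the deepest, at 1.08 and 1.21. It rests on the commonest ratio of the lowest values to those of Parent 1, which held for 29.0% to 36.5% of them in the other libraries.

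In Parent cells the 8 members covered a wide range of levels. SERPINB2 was highest with a mean of 203 ± 1.96 FPKM (SD, n = 2), followed by SERPINB5 with 147 ± 5.89, SERPINB6 with 50.7 ± 1.62 and SERPINB3 with 44.8 ± 2.04. SERPINB1 had 29.7 ± 0.358 FPKM, SERPINB8 11.2 ± 0.963, SERPINB9 8.54 ± 0.493 and SERPINB4 2.35 ± 0.370. No 2 neighbours in this order overlapped in their Parent libraries. SERPINB2 and SERPINB5 together made up 70.7% and 70.2% of the summed FPKM of the 8 genes in Parent 1 and Parent 2. The urokinase inhibitor SERPINB2 and the non-inhibitory maspin, SERPINB5, thus made up most of the family's RNA per length in untreated cells.

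The order of the levels changed in the treated cells. In NC-1, SERPINB3 stood above SERPINB6, and with miR-4711-5p SERPINB3 fell to the fifth place, below SERPINB1, while SERPINB9 stood above SERPINB8. Neighbouring genes did not overlap in their libraries in NC-1 or with miR-4711-5p either. The summed FPKM of the 8 genes was 492 and 504 in Parent, 578 and 560 in NC-1, and 387 and 384 with miR-4711-5p. The family sum was therefore highest in both NC-1 libraries and lowest in both miR-4711-5p libraries. The share of SERPINB3 in it was 8.81% and 9.18% in Parent, 8.38% and 9.62% in NC-1, and 3.61% and 3.96% with miR-4711-5p.

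**Figure D1:**
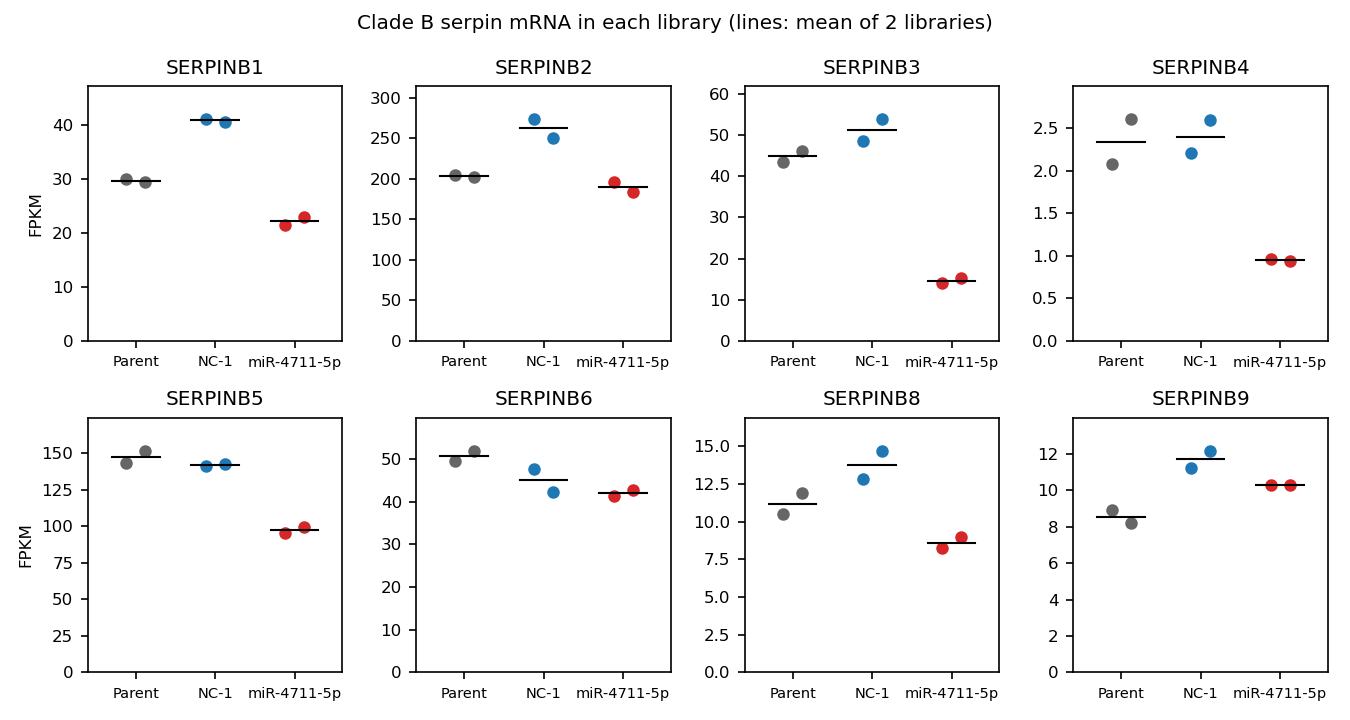
FPKM (vertical axis, from 0) of each clade B serpin in the 2 Parent, 2 NC-1 and 2 miR-4711-5p libraries, with 1 point for each library and a line at the mean of 2. Each panel is scaled to the highest value of its own gene. For 6 of the 8 genes both miR-4711-5p points lie below all 4 control points. Relative to its own level SERPINB3 shows the widest gap, from 43.4 or more in the controls to 15.2 or less. In FPKM the gap of SERPINB5 is wider, from 141 or more to 99.3 or less.

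To ask which of these differences exceeded the spread between libraries, genes averaging 1 FPKM or more (12040 in all) were tested with limma on log2(FPKM + 1), and all 8 members passed this filter. SERPINB4 passed it only through its control libraries, being under 1 FPKM with miR-4711-5p. Against Parent, 6 of the 8 were called lower with miR-4711-5p (limma, Benjamini-Hochberg adjusted p under 0.05 over all genes tested), 1 higher (SERPINB9) and 1 was not called (SERPINB2). Among all genes tested, 24.7% were called lower and 18.7% higher in this comparison. Against NC-1, 6 of the 8 were called lower and none higher, where 21.2% of all genes were called lower and 39.6% in either direction. SERPINB1, SERPINB3, SERPINB4, SERPINB5 and SERPINB8 were lower against both references, which are 5 of 8 members, and this held for 15.4% of all genes. The median log2 fold change of the 8 members was -0.37 against Parent and -0.58 against NC-1, and that of all genes tested was -0.013 and 0.0038. Because the members were chosen with earlier results of these data known, these counts and medians describe the list and test nothing about the family. SERPINB3 and SERPINB4 also share part of their reads. Of the tested clade B genes outside the list, SERPINB13 was lower against NC-1 (-0.50) and SERPINB7 higher (0.68). The libraries of the 2 groups did not overlap for 8 of the 8 members against Parent (74.2% of all genes) and for 7 against NC-1 (72.4% of all genes), so this count says little about the members. The 2 comparisons share the miR-4711-5p libraries and are not independent of each other.

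Between NC-1 and Parent, 3 of the 8 members were called, a count not far from the share over all genes. SERPINB1, SERPINB2 and SERPINB9 were called higher in NC-1, no member was called lower, where 12.1% of all genes were called higher, 15.1% lower and 27.2% in either direction. The libraries did not overlap for 7 of the 8, all but SERPINB4, and for 65.5% of all genes, so this count too says little about the members. The median log2 fold change of the 8 members was 0.23, and that of all genes was -0.010. For 6 members the pair of miR-4711-5p values was under every control value, as it was for 26.3% of all genes. It was over every control value for no member and for 23.8% of all genes. The call against Parent rested on single libraries for SERPINB6, SERPINB8 and SERPINB9: the number of members called was 7 with all libraries, 4 without Parent 2, 4 without miR-4711-5p 1 and 5 without miR-4711-5p 2. Against NC-1 the number was 6 with any 1 library left out. In a bulk library, less RNA in every cell and fewer cells that express a gene cannot be told apart.

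**Figure D2:**
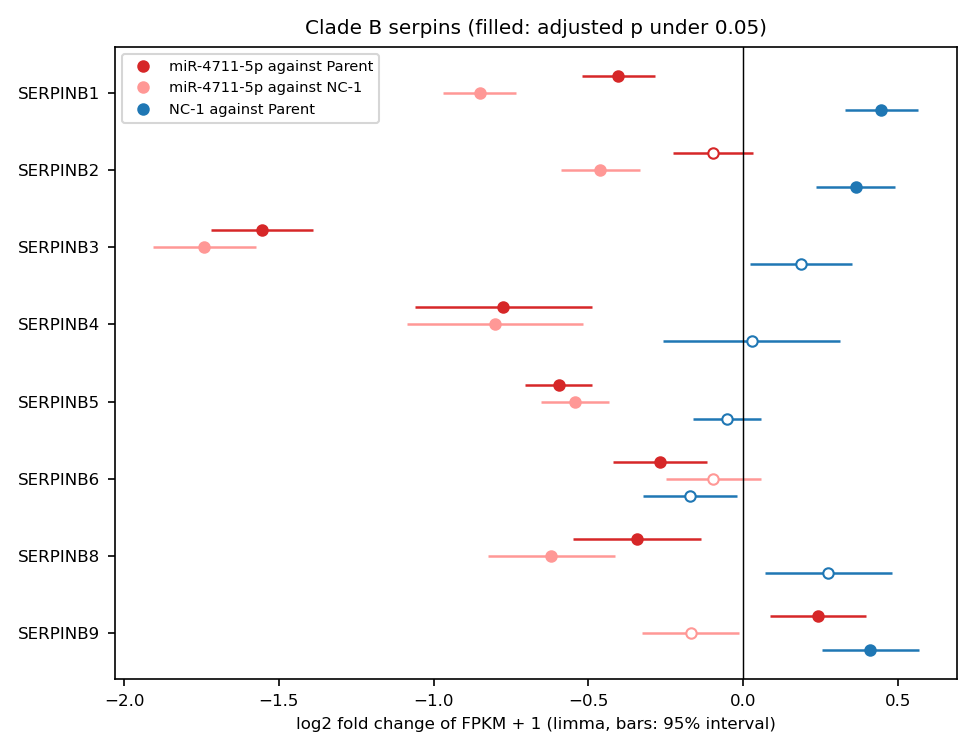
Log2 fold change of FPKM + 1 (horizontal axis, limma, bars for the 95% interval) of each clade B serpin in the 3 comparisons, filled where the adjusted p was under 0.05. SERPINB3 lies farthest left, at -1.55 against Parent and -1.74 against NC-1, and SERPINB9 is the only member to the right of 0 against Parent.

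SERPINB3 and SERPINB4, first known as the squamous cell carcinoma antigens, arose by duplication and differ in the proteases they trap. SERPINB3 is known as an inhibitor of the cysteine cathepsins L, K and S, and SERPINB4 of the serine proteases cathepsin G and chymase. SERPINB3 had 43.4 and 46.2 FPKM in Parent, 48.4 and 53.8 in NC-1, and 14.0 and 15.2 with miR-4711-5p. The miR-4711-5p libraries did not overlap either control group. The mean was 3.07 times higher in Parent than with miR-4711-5p, and limma gave a log2 fold change of -1.55 (SE, the standard error, 0.07, with a limma adjusted p = 9.30e-06). Against NC-1 the mean was 3.50 times higher in the control, and the log2 fold change came to -1.74 (SE 0.07, limma adjusted p = 8.06e-06). Among the 12040 genes SERPINB3 held place 40 of the decreases against Parent and place 25 against NC-1. It was the largest decrease of the family in both comparisons. NC-1 and Parent differed by 0.19 (95% interval 0.02 to 0.35, limma adjusted p = 0.0903), which did not pass the threshold.

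SERPINB4 was the lowest of the members. It had 2.08 and 2.61 FPKM in Parent, 2.21 and 2.59 in NC-1, and 0.962 and 0.938 with miR-4711-5p, so that again the miR-4711-5p values did not reach the controls. The mean was 2.47 times higher in Parent and 2.53 times higher in NC-1 than with miR-4711-5p. The log2 fold changes were -0.77 against Parent and -0.80 against NC-1 (SE 0.12, limma adjusted p = 0.00220 and 0.00213). Its entry to the test depended on the control groups, where it was high, so these calls carry less weight than those of the other members. At this level the added 1 FPKM makes the fold change smaller, and with 0.1 FPKM added it was -1.21 and -1.25. With 5 FPKM added it was -0.30 and -0.32, and the gene was called with each of these additions.

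The values of SERPINB3 and SERPINB4 are not separate measurements in full. Their coding sequences, both 1170 bases long, are identical at 1114 positions (95.2%). Of the 1633 windows of 75 bases (the read length) in the canonical SERPINB4 transcript, 178 (10.9%) occur unchanged in a SERPINB3 transcript and 869 (53.2%) with up to 2 mismatches. How the authors' counting divided such reads was not measured. SERPINB3 exceeded SERPINB4 by a ratio between 17.7 and 21.9 in the 4 control libraries and by 14.5 and 16.2 with miR-4711-5p. No window of any other member occurred in another clade B gene with up to 2 mismatches. SERPINB3 lies inside the span of SERPINB11 on the opposite strand, and SERPINB11 was listed at 0 in all 6 libraries.

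A microRNA binds mRNA mainly through its seed, bases 2 to 8 from its 5′ end, and sites in the 3′ UTR are the best known. The mature sequence below is shown with the seed in capitals, because the sites searched in the members are its complement. It is from RefSeq (GRCh38.p14) and is 23 bases long.
hsa-miR-4711-5p: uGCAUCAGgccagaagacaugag
A 7mer-m8 site is CTGATGC, a 7mer-A1 site is TGATGCA, and an 8mer, CTGATGCA, holds both. The sites were searched in the GENCODE transcripts of the members on GRCh37, which is the same build as hg19.

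None of the 8 members has a 7mer or 8mer site in the 3′ UTR of its canonical transcript, where 17.1% of 10595 tested genes with an annotated 3′ UTR have one. The canonical 3′ UTRs are between 139 bases (SERPINB6) and 2893 bases (SERPINB9) long, and those of SERPINB3 and SERPINB4 have 460 bases each. Sites in the coding sequence are present in 5 members, SERPINB2, SERPINB3, SERPINB4, SERPINB6 and SERPINB9. A coding site of any kind is present in 24.2% of the 10595 genes, and a coding 8mer in 4.76%. SERPINB3 and SERPINB4 are the members with a coding 8mer, and the surrounding bases are identical in both. The coding sites are printed on the strand of the gene, with 10 bases on each side and the site in capitals, so that the kind of match can be set beside each member's values. They lie at chr18:61326690-61326697 (SERPINB3, minus strand), chr18:61309051-61309058 (SERPINB4, minus), chr18:61562601-61562607 (SERPINB2, plus), chr6:2948782-2948788 (SERPINB6, minus) and chr6:2893747-2893753 (SERPINB9, minus), all on GRCh37.
SERPINB3, 8mer: aacaaatccaCTGATGCAtatgagctga
SERPINB4, 8mer: aacaaatccaCTGATGCAtatgagctga
SERPINB2, 7mer-m8: ggtagttatcCTGATGCgattttgcag
SERPINB6, 7mer-m8: ctgggcatgaCTGATGCcttcgagctg
SERPINB9, 7mer-A1: gtagctcaatTGATGCAgaaaccaggc
The SERPINB6 site is coding in 12 of its 21 coding transcripts, the canonical one among them, and lies in the 3′ UTR of 2 others. SERPINB1, SERPINB5 and SERPINB8, which were lower with miR-4711-5p against both references, have no 7mer or 8mer site in the 3′ UTR or coding sequence of any annotated coding transcript. Such a match is a description of the sequence, and binding was not measured.

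SERPINB5 encodes maspin, which has the serpin fold but does not inhibit proteases and is known as an epithelial tumour suppressor. It had 143 and 152 FPKM in Parent, 141 and 143 in NC-1, and 95.03 and 99.3 with miR-4711-5p. The control groups lay close together and both miR-4711-5p libraries were below them. The log2 fold change was -0.60 against Parent (SE 0.05, limma adjusted p = 9.44e-05) and -0.54 against NC-1 (limma adjusted p = 0.000171), a decrease of the mean by 34.1% and 31.6%. Between NC-1 and Parent it was -0.05 (95% interval -0.16 to 0.06, limma adjusted p = 0.427). SERPINB5 was thus, beside SERPINB4, the member whose level in NC-1 differed least from Parent.

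SERPINB1 is a fast inhibitor of the neutrophil proteases elastase, cathepsin G and proteinase 3. It had 30.0 and 29.4 FPKM in Parent, 41.1 and 40.6 in NC-1, and 21.5 and 22.9 with miR-4711-5p. The 3 groups did not overlap, with NC-1 above Parent and miR-4711-5p below it. The log2 fold change was 0.45 for NC-1 against Parent (SE 0.05, limma adjusted p = 0.00199), -0.40 for miR-4711-5p against Parent (adjusted p = 0.000782, limma) and -0.85 for miR-4711-5p against NC-1 (limma adjusted p = 3.09e-05). Its calls were past the threshold in all 3 comparisons with any 1 library left out. The choice of reference moved its ratio from 1.34 to 1.84, as control mean over miR-4711-5p mean.

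SERPINB2 is plasminogen activator inhibitor 2, which inhibits urokinase and is made by monocytes and epithelial cells under stress or inflammation. It had 205 and 202 FPKM in Parent, 273 and 251 in NC-1, and 196 and 184 with miR-4711-5p. NC-1 stood above the other groups, and miR-4711-5p was just below Parent. Against NC-1 the log2 fold change was -0.46 (SE 0.05, limma adjusted p = 0.000706), and NC-1 was higher than Parent by 0.36 (limma adjusted p = 0.00477). Against Parent it was -0.10 (95% interval -0.23 to 0.03, limma adjusted p = 0.187). The decrease of SERPINB2 was therefore called with 1 of the 2 references. A coding gene model on the same strand, ENSG00000289724, overlaps SERPINB2 by 6715 bases, and how its reads were assigned is not known.

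SERPINB8 is known as an inhibitor of furin, a processing protease of the secretory pathway. It had 10.5 and 11.9 FPKM in Parent, 12.8 and 14.7 in NC-1, and 8.24 and 8.96 with miR-4711-5p. The miR-4711-5p values were under those of every control. The log2 fold change was -0.62 against NC-1 (SE 0.09, limma adjusted p = 0.00158) and -0.34 against Parent (limma adjusted p = 0.0170). The second call was lost without Parent 2 (log2 fold change -0.26, limma adjusted p = 0.0981), without miR-4711-5p 1 (-0.29, limma adjusted p = 0.110) and with no filter on low values (limma adjusted p = 0.0525). NC-1 was above Parent by 0.28 (limma adjusted p = 0.0553), a difference that passed the threshold after median-of-ratios scaling (0.29, limma adjusted p = 0.0485). HMSD, which overlaps SERPINB8 on the same strand, reached at most 0.284 FPKM.

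SERPINB9 and SERPINB6 showed the smallest differences between miR-4711-5p and NC-1. SERPINB9 inhibits granzyme B, with which cytotoxic lymphocytes kill their targets, and had 8.89 and 8.20 FPKM in Parent, 11.2 and 12.2 in NC-1, and 10.3 in both miR-4711-5p libraries. The groups did not overlap, and miR-4711-5p lay between Parent and NC-1. The log2 fold change was 0.41 for NC-1 against Parent (SE 0.07, limma adjusted p = 0.00610) and 0.24 for miR-4711-5p against Parent (limma adjusted p = 0.0226). Between miR-4711-5p and NC-1 it was -0.17 (95% interval -0.33 to -0.01, limma adjusted p = 0.0810). The increase against Parent was not called without Parent 2 (0.19, limma adjusted p = 0.106), without either miR-4711-5p library (0.24 each, limma adjusted p = 0.102 and 0.0971), or with no filter on low values (limma adjusted p = 0.0508).

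SERPINB6 is a widely expressed inhibitor of cathepsin G, trypsin and thrombin. It had 49.6 and 51.9 FPKM in Parent, 47.7 and 42.3 in NC-1, and 41.2 and 42.7 with miR-4711-5p. The miR-4711-5p libraries were below Parent and overlapped NC-1. The log2 fold change was -0.27 against Parent (SE 0.06, limma adjusted p = 0.0138), and -0.10 against NC-1 (95% interval -0.25 to 0.06, limma adjusted p = 0.276). Without Parent 2 it was -0.24 against Parent (limma adjusted p = 0.0751), without miR-4711-5p 1 -0.24 (limma adjusted p = 0.0886) and without miR-4711-5p 2 -0.29 (limma adjusted p = 0.0513), so each of these libraries decided the call.

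The members lie in 2 gene clusters (GENCODE on GRCh37). SERPINB1 (chr6:2832566-2842193), SERPINB9 (chr6:2887504-2903543) and SERPINB6 (chr6:2948393-2972399) follow each other on the minus strand of chromosome 6. The other 5 members are on chromosome 18, from SERPINB5 (chr18:61144191-61172318, plus strand) through SERPINB4 (chr18:61304493-61311490, minus), SERPINB3 (chr18:61322431-61329127, minus) and SERPINB2 (chr18:61538926-61571122, plus) to SERPINB8 (chr18:61637263-61687013, plus). On chromosome 6, against Parent, SERPINB1 and SERPINB6 were lower and SERPINB9 higher with miR-4711-5p, the calls of the last 2 resting on single libraries. Against NC-1 all 3 were below 0, and SERPINB1 alone was called. On chromosome 18 all 5 members were below 0 against both references, with the larger values at the adjacent SERPINB4 and SERPINB3.

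The chromosome 18 cluster also holds the 5 clade B genes that are not members. SERPINB13 (headpin), an inhibitor of cathepsins L and K in stratified epithelia, had 23.2 and 27.1 FPKM in Parent, 23.3 and 25.3 in NC-1, and 16.2 and 17.4 with miR-4711-5p. It was lower with miR-4711-5p, with log2 fold changes of -0.55 against Parent and -0.50 against NC-1 (SE 0.08, limma adjusted p = 0.00198 and 0.00316). SERPINB7 had 6.48 and 6.32 FPKM in Parent, 4.54 and 3.79 in NC-1, and 7.48 and 7.09 with miR-4711-5p. It went the other way, with a log2 fold change of 0.68 against NC-1 (limma adjusted p = 0.000910), 0.16 against Parent (limma adjusted p = 0.165) and -0.52 between NC-1 and Parent (limma adjusted p = 0.00640). SERPINB7 has 2 coding sites of the 7mer-A1 kind for the microRNA, both in its canonical transcript. SERPINB13 has none in its coding sequence or 3′ UTR. SERPINB10, SERPINB11 and SERPINB12 were under 1 FPKM in every library and were not tested.

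**Figure D3:**
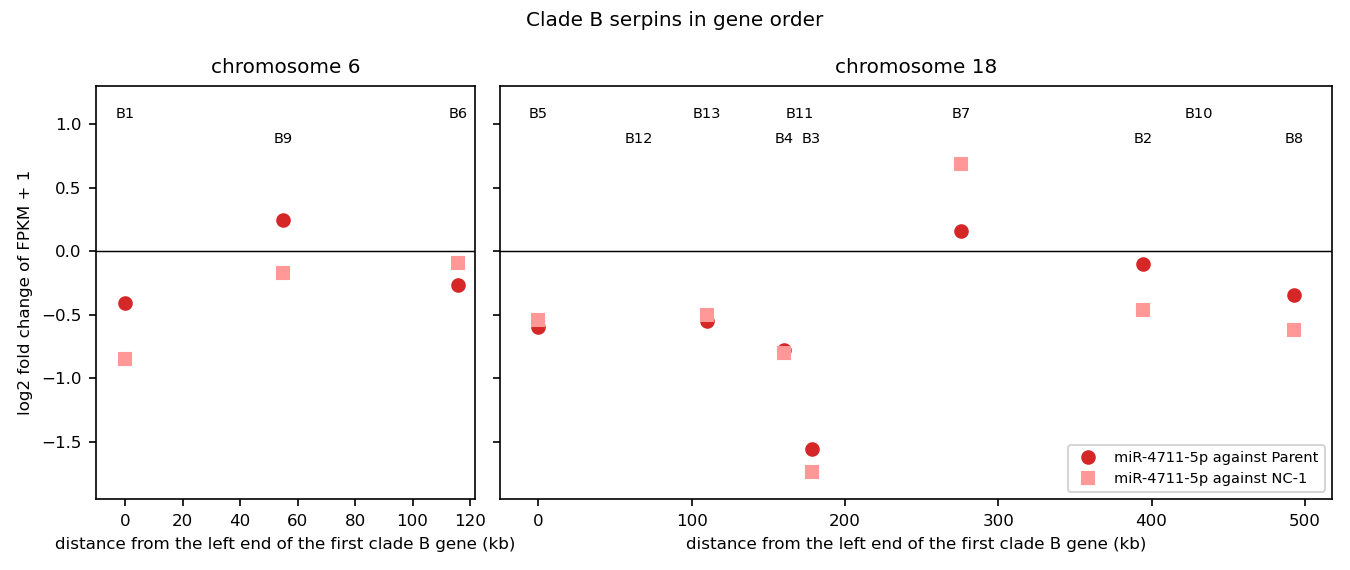
Log2 fold change of FPKM + 1 (vertical axis) of the clade B genes, placed by distance in kb from the left end of the first clade B gene of each cluster, for miR-4711-5p against Parent (circles) and against NC-1 (squares). SERPINB3 at 178 kb has the lowest points (-1.55 and -1.74), SERPINB7 at 276 kb lies above 0 in both, and SERPINB10, SERPINB11 and SERPINB12 have a label and no point because they were not tested.

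Promoters of the members (250 bases before to 50 after the start of the gene, RefSeq, GRCh38.p14) were searched on both strands for the AP-1 motif TGANTCA, the interferon-stimulated response element (GAAA, any 2 bases, GAAA) and the kappaB consensus. AP-1, interferon and NF-kappaB pathways are known to act on genes of this family, such as SERPINB2 and SERPINB9. The promoters of SERPINB2, SERPINB5 and SERPINB8 hold TGANTCA, as do 7.71% of 35116 promoters. The response element (3.57% of promoters) and the kappaB consensus (5.91%) were found in no member's promoter. The AP-1 matches are printed with 8 bases on each side and the motif in capitals, since SERPINB8 holds more than 1.
SERPINB2, chr18:63887603-63887609: taaaatgtTGAATCActcaaagg
SERPINB5, chr18:63476812-63476818: cttcagccTGAATCAtttctttc
SERPINB8, chr18:63969896-63969902: gtcaaacgTGAATCAacggtgaa
SERPINB8, chr18:63970053-63970059: aacggttcTGAGTCAtctgccgg
All 3 genes were called lower with miR-4711-5p than in NC-1 (-0.46 for SERPINB2, -0.54 for SERPINB5 and -0.62 for SERPINB8), as were 21.2% of all genes. Of the members without the motif, SERPINB1 (-0.85), SERPINB3 (-1.74) and SERPINB4 (-0.80) were also called lower, and SERPINB6 and SERPINB9 were not called. Against Parent, SERPINB2 was not called (-0.10, limma adjusted p = 0.187). Differences between these genes, with or without the motif, were not tested.

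The proteases that clade B serpins are known to inhibit were described from a list of 19 genes. Of these, 10 passed the filter, and the leukocyte proteases ELANE, PRTN3, CTSG, CMA1, GZMB and GZMM, with KLK8, CTSK and CASP5, did not, CTSK with values between 0.548 and 1.42 FPKM. Against Parent, 3 of the 10 were called higher with miR-4711-5p and 3 lower (43.4% of all genes were called in either direction). Against NC-1, 2 were higher and 4 lower (39.6% of all genes in either direction), so that 6 of 10 were called with each reference. The protease calls against Parent fell from 6 to 3 when any single library of these groups was removed. The median log2 fold change of the 10 was -0.03 against Parent and -0.14 against NC-1. Between NC-1 and Parent, 5 of the 10 were called higher in NC-1 and 1 lower (27.2% of all genes in either direction), so the 2 references differ for these proteases.

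PLAU, the urokinase that SERPINB2 inhibits, rose. It had 185 and 188 FPKM in Parent, 351 and 339 in NC-1, and 412 and 410 with miR-4711-5p, and rose by 1.14 (log2) against Parent (SE 0.04, limma adjusted p = 3.95e-06) and 0.25 against NC-1 (limma adjusted p = 0.00220). PLAU was already higher in NC-1 than in Parent, by 0.88 (limma adjusted p = 8.54e-05). The FPKM of SERPINB2 was 1.10 and 1.07 times that of PLAU in Parent, 0.779 and 0.739 times in NC-1, and 0.474 and 0.449 times with miR-4711-5p. The inhibitor and its protease were thus at similar mRNA levels in Parent cells, and the ratio was lowest with miR-4711-5p. PLAT, the tissue plasminogen activator, had 39.1 and 41.1, 27.4 and 28.8, and 53.9 and 55.8 FPKM in the same order of groups. It was higher with miR-4711-5p by 0.44 against Parent and 0.94 against NC-1 (limma adjusted p = 0.000575 and 2.23e-05). PLAT was lower in NC-1 than in Parent (-0.50, limma adjusted p = 0.00151).

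Of 4 further genes of plasminogen activation, PLAUR, the urokinase receptor, had 64.5 and 58.4 FPKM in Parent, 68.5 and 75.6 in NC-1, and 101 and 98.3 with miR-4711-5p. It rose by 0.69 against Parent and 0.47 against NC-1 (log2, limma adjusted p = 0.000248 and 0.00170), and NC-1 was above Parent by 0.23 (limma adjusted p = 0.0436). The last value ranged from 0.16 to 0.30 under other settings or with 1 library left out, and its call was lost in at least 1 of these fits. ANXA2, a plasminogen-binding annexin of the cell surface, was lower with miR-4711-5p, with log2 fold changes of -0.36 against Parent and -0.31 against NC-1 (limma adjusted p = 0.000556 and 0.00110). Its partner S100A10 was lower against Parent (-0.22, limma adjusted p = 0.0109) and not called against NC-1 (-0.03, limma adjusted p = 0.640). PLG, plasminogen itself, was under 1 FPKM in every library.

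CTSL, the lysosomal cathepsin L that SERPINB3 inhibits, had 119 and 122 FPKM in Parent, 138 and 136 in NC-1, and 107 and 110 with miR-4711-5p. It was lower with miR-4711-5p than in NC-1, with a log2 fold change of -0.33 (SE 0.04, limma adjusted p = 0.000812). Against Parent the log2 fold change was -0.15 (limma adjusted p = 0.0215). This call was lost without Parent 1, Parent 2, miR-4711-5p 1 or miR-4711-5p 2, where the value lay between -0.13 and -0.17. It was also lost in a fit with no trend (limma adjusted p = 0.0580). CTSS was not called against Parent (0.01, limma adjusted p = 0.879) and FURIN, the target of SERPINB8, was not either (-0.07, limma adjusted p = 0.304). Against NC-1 both were lower, with log2 fold changes of -0.50 and -0.29 (limma adjusted p = 0.000436 and 0.00472). CTSL, CTSS and FURIN were each higher in NC-1 than in Parent (0.18, 0.51 and 0.21, limma adjusted p = 0.0177, 0.00155 and 0.0238). For CTSL this value stayed between 0.17 and 0.20 under other settings or with 1 library left out, and the call was lost in at least 1 of these fits.

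**Figure D4:**
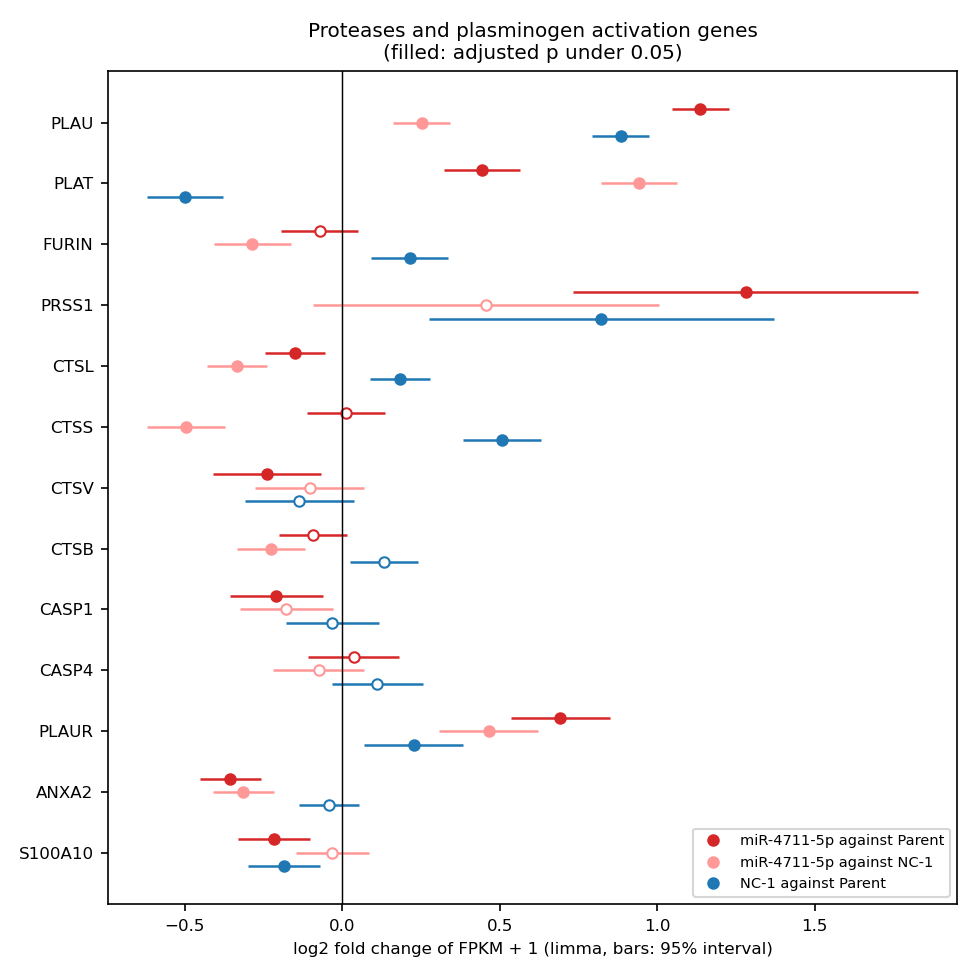
Log2 fold change of FPKM + 1 (horizontal axis, limma, bars for the 95% interval) of the tested target proteases and plasminogen activation genes in the 3 comparisons, filled where the adjusted p was under 0.05. Of the genes called against both Parent and NC-1, PLAU (1.14 and 0.25), PLAT (0.44 and 0.94) and PLAUR (0.69 and 0.47) lie right of 0, and ANXA2 and CTSL lie left of it. PRSS1 (1.28 and 0.46) also lies right of 0 against both and was called against Parent alone. FURIN, CTSV, CTSB, CASP1 and S100A10 lie left of 0 against both, each called against Parent or NC-1 and not against the other.

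Serpins of other clades mostly averaged under 1 FPKM, though some of these, such as SERPINI1 and SERPIND1, were above 0 in every library. Of 21 such genes, 4 were tested (SERPINE2, SERPINF1, SERPINF2 and SERPINH1). Against Parent 1 of the 4 was called higher with miR-4711-5p (SERPINF1, 0.45, limma adjusted p = 0.0348) and none lower, where 18.7% of all genes were higher and 24.7% lower, so this count is near the background. SERPINH1, the collagen chaperone of the endoplasmic reticulum, differed from NC-1 by -0.09 (95% interval -0.22 to 0.03, limma adjusted p = 0.210).

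For the 3 members with the largest fold change in any comparison, which were those against NC-1 for SERPINB3, SERPINB1 and SERPINB4, the genes with the most similar profile over the 6 libraries were found by the distance of their centred log2(FPKM + 1). For SERPINB3 these were SPDEF (distance 0.135), ADA (0.165) and SEPN1 (0.259), where SERPINB3 itself was 1.92 from a flat profile. SPDEF, an epithelial ETS transcription factor, had means of 14.1 FPKM in Parent, 15.4 in NC-1 and 4.12 with miR-4711-5p, and ADA, adenosine deaminase, had 14.4, 16.9 and 3.96. For SERPINB1 the nearest were CGNL1 (0.0668), HKDC1 (0.0947) and FAM13A (0.0986), of which FAM13A had means of 11.5, 16.8 and 8.47 FPKM in the same order of groups. For SERPINB4 they were GABPB2 (0.0901), SHISA5 (0.130) and NDUFA12 (0.140). With the Pearson correlation as the measure, 1 of the 3 genes stayed the same for each member (ADA, CGNL1 and GABPB2), so the names depend on the measure.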

How the data were processed

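RNA of BxPC-3 cells was extracted with a column kit and made into stranded mRNA libraries (TruSeq), which the authors sequenced as single-end reads of 75 bases. The authors deposited FPKM per gene symbol for each library, calculated with Cuffnorm after mapping to hg19. The submitters' processing notes name TopHat2 2.1.1, Bowtie2 2.3.5.1, SAMtools 1.2 and Cufflinks 2.2.1, and the paper's methods name other versions of the first 3. The gene annotation and the strand and normalization options are not given in the sources used here.

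Groups were taken from the sample titles. Testing was on log2(FPKM + 1) with limma 3.58.1 (R 4.3.3) with a trend, for genes averaging 1 FPKM or more, all 3 groups in 1 fit with 3 residual and 4.15 prior degrees of freedom, two-sided, Benjamini-Hochberg adjusted over 12040 genes at 0.05. An exact permutation test of 2 against 2 libraries cannot go below p = 0.333. Count models need counts and were left out. The script for the fit was first tested on simulated data. The alternatives were other pseudocounts (0.1 and 5), filters, scaling, fits and left-out libraries. Tables and figures were made with Python 3.11.15, pandas 2.3.3 and matplotlib 3.10.9.

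Protein sequences of the members were not used here. In the search for seed sites, 1434 of the tested symbols had no match in the annotation. The members and gene lists were chosen with earlier results of these data known. All 8 members are named. From the lists of other clade B serpins, other serpins, target proteases and plasminogen activation genes, those called against both references are named with their values (SERPINB13, PLAU, PLAUR, PLAT, ANXA2 and CTSL). SERPINB7, SERPINF1, SERPINH1, S100A10, CTSS, CTSK, FURIN and the marker genes fall outside this rule and were chosen after their values were seen. The other tested genes of the lists enter the counts and the figure without values in the text. A gene planned for 2 of the lists was taken out of them and is not reported here.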

Additional observations from a re-analysis of the deposited data

How the results depend on the processing

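Of the fold changes of the 8 clade B serpins against NC-1, none changed its direction or its side of the threshold under the alternatives that gave a value. SERPINB4 had none with a filter of 5 FPKM, where 5 members were called in place of 6, and 6 in place of 7 against Parent. Against Parent, those of SERPINB6, SERPINB8 and SERPINB9 lost their call under the settings given with their values, and no other did. Between NC-1 and Parent, no call of a member was lost. SERPINB8 passed the threshold with a filter of 5 FPKM (limma adjusted p = 0.0396), and SERPINB6 without NC-1 1 (limma adjusted p = 0.0423). The value of SERPINB4 in this comparison, 0.027, was not called and ranged from -0.086 to 0.14 with 1 library left out, negative without Parent 1 or NC-1 2. That of SERPINB13, -0.043, ranged from -0.15 to 0.065, positive without Parent 2 or NC-1 1.

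Libraries of the same number did not deviate together (correlations of their deviations between -0.0089 and 0.061), so the numbers are not taken as pairs. With the replicate number as a block, 5 members were called between NC-1 and Parent in place of 3, SERPINB3 and SERPINB8 being added, and the number stayed at 7 against Parent and 6 against NC-1 for miR-4711-5p. Without a filter on low values, 1176 genes were called lower in NC-1 than in Parent in place of 1823.

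With 1 library left out, the lone library of its group is assumed to vary like the others. Against Parent, from 1283 to 2223 genes were then called higher and from 1963 to 2962 lower with miR-4711-5p, with 4 to 7 members called. Against NC-1 the numbers were 1233 to 2174 and 1654 to 2506, and between NC-1 and Parent 671 to 1056 and 786 to 1329, with 3 to 4 members called. The cause was not tested, but each such fit has fewer samples. Precision is limited by 2 libraries in each group.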
